A study of Homo sapiens with 4 samples.

Results

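The polyadenylated replacement histone variants were described as 8 genes: H2AZ1, H2AZ2, H3-3A, H3-3B, H1-10, H2AJ, MACROH2A1 and MACROH2A2. They were taken from the table by Ensembl identifier, with symbols from GENCODE release 44, and all 8 were found among 61906 gene rows. Every member passed the expression minimum, 1 TPM (a length-corrected share of a library) averaged over the 4 libraries, which 14686 genes reached. The RNA came from HepG2, an established human hepatocellular carcinoma line labelled wild type. One group was exposed to 20 µM pyridostatin (PDS) for 24 h, and the other was mock treated. PDS is a synthetic ligand of guanine quadruplexes (G4), stacked folds of guanine-rich DNA. Each group had 2 libraries of poly(A)-enriched RNA, called PDS library 1 and 2 and mock library 1 and 2. The submitters call the replicates biological, but nothing says whether they were separate cultures or days, so p-values reflect only how far these libraries vary. In bulk RNA, a large change in some cells and a smaller change in all cells cannot be told apart. As TPM are shares of a library, a change in the total RNA of the cells is not seen in them.

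Most histone proteins are made from replication-dependent genes, whose mRNAs end in a stem-loop in place of a poly(A) tail and are made mainly in S phase. Replacement variants come from genes outside that system, are made throughout the cell cycle and carry a poly(A) tail. H3.3 is placed on active genes by the HIRA complex and on telomeric and other repetitive chromatin by DAXX and ATRX. H2A.Z is exchanged into nucleosomes next to promoters by the SRCAP and TIP60/p400 remodellers. MacroH2A carries a large extra domain and is known from repressed chromatin such as the inactive X chromosome, H2A.J is known to build up in senescent human fibroblasts, and H1-10 encodes the linker histone H1x.

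Library facts bear on every value below. The PDS libraries held 15573166 and 19647907 reads and the mock libraries 39217670 and 30408397, as recovered from the TPM steps. RNA of the mitochondrial genome took 36.5% and 36.4% of all TPM in the PDS libraries, against 15.3% and 14.5% in the mock libraries, so the same nuclear RNA has a smaller TPM after PDS. By TPM as deposited the log2 fold change of the median gene was -0.55. Rescaled without the mitochondrial genome it was still -0.20. Fold changes here were therefore taken after scaling each library to its median gene, on log2(scaled TPM + 1), unless another scaling is named. The 10 hepatocyte markers were above 0 in every library. Relative to the median gene 7 of them were called higher and 2 lower, against 16.2% and 13.0% of all tested genes. By TPM as deposited 2 were called higher and 5 lower, against 379 and 10538 of all 14686 tested genes. Under quantile normalization 3 were higher and 7 lower, against 1829 and 2404 of all tested genes. Relative to the median gene TTR, FGB and APOA1 had the largest changes (0.96, 0.90 and 0.73 on the log2 scale). The 2 called lower were APOB and HNF4A (-0.55 and -0.23), named outside the rule because they went the other way. The 10 markers of blood, stromal and endothelial cells summed to 4.16 to 4.89 TPM in PDS libraries and 6.78 to 6.85 TPM in mock libraries. Of these, 2 passed the minimum and neither was called, among them PECAM1 with a log2 fold change of 0.27. HBA1 was listed at 0 in 3 of 4 libraries.

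Relative to the median gene, 3 of the 8 members were higher after PDS (H3-3A, H3-3B and H2AJ), 1 was lower (H2AZ1) and 4 did not pass (limma, adjusted p threshold 0.05 over all 14686 genes), whereas by TPM as deposited all 8 were lower and passed. Over all tested genes 29.2% were called, 16.2% higher and 13.0% lower, so calls were not rare in the background. The changes were small: the 4 called members ranged from 0.87-fold to 1.30-fold, and the median log2 fold change of the 8 was 0.01 against 0.00 over all tested genes. By TPM as deposited 71.8% of all tested genes were called lower, beside the 8 members. Rescaled without the mitochondrial genome, 0 members were higher and 4 lower (H2AZ1, H2AZ2, H1-10 and MACROH2A2). Over all genes on that scaling, 33.2% were called lower and 1165 of 14686 higher. Under quantile normalization 1 member was higher (H2AJ) and 2 lower (H2AZ1 and H1-10). Of the 14686 tested genes, 1829 were called higher and 2404 lower on that scaling. The scaling thus decides the direction for H3-3A, H3-3B, H2AJ and MACROH2A1, while H2AZ1, H2AZ2, H1-10 and MACROH2A2 were below 0 under each of the 4 scalings.

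**Figure D1:**
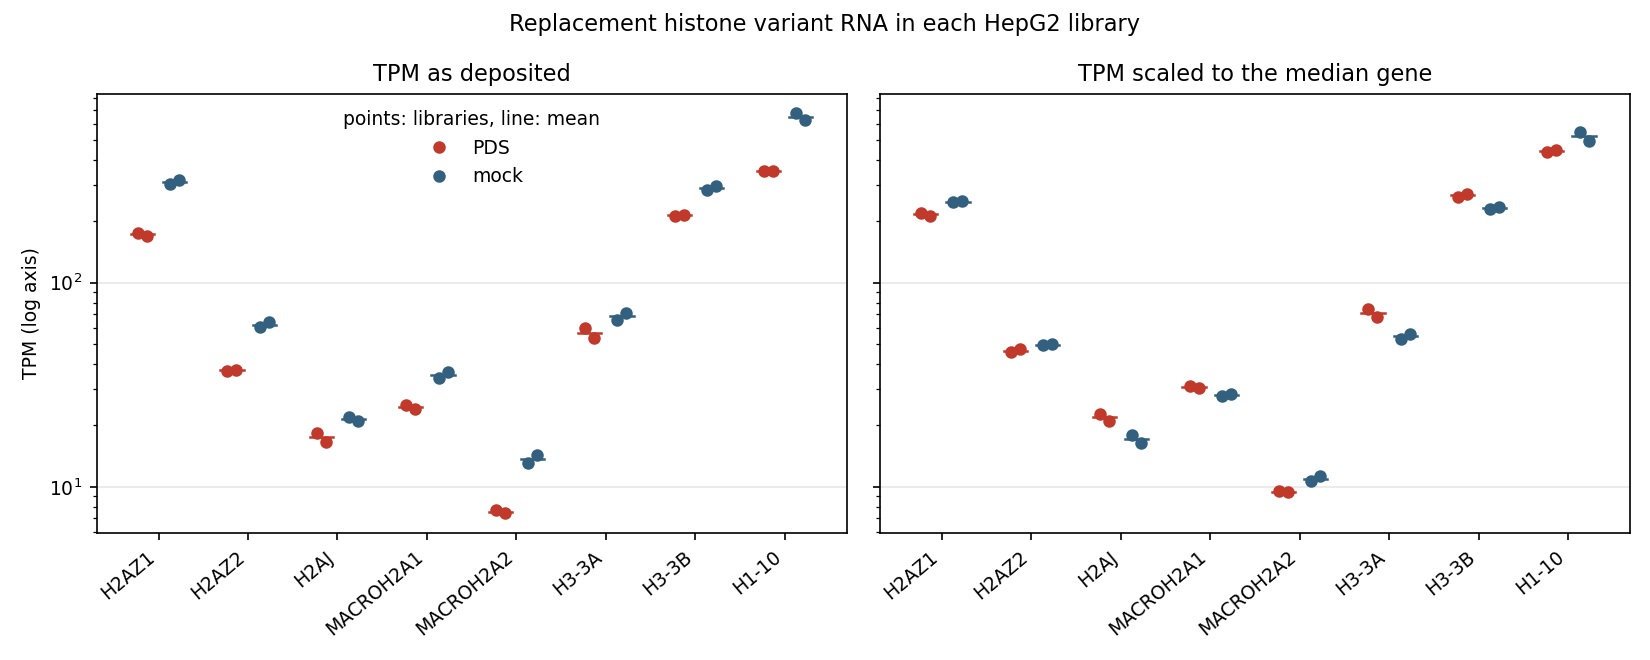
TPM of the 8 members in each library, on a log axis, as deposited (left panel) and scaled to the median gene (right panel), with PDS libraries in red, mock libraries in blue and lines at the group means. As deposited, both PDS libraries lie below both mock libraries for every member; after scaling H3-3A, H3-3B, H2AJ and MACROH2A1 lie above mock and the others below.

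H3.3 is encoded by H3-3A (ENSG00000163041.13, chr1:226061851-226072019, plus strand, GRCh38) and H3-3B (ENSG00000132475.10, chr17:75776434-75785893, minus strand), which make the same protein. Their coding sequences were 411 bases each and 78.6% identical. The first 60 coding bases are shown because they show how far reads of the 2 genes can be told apart. Capitals mark bases that differ from H3-3A. H3P6 is a processed pseudogene on chromosome 2 that matched the H3-3A coding sequence over all 411 bases.
H3-3A: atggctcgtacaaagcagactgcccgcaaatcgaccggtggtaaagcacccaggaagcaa
H3-3B: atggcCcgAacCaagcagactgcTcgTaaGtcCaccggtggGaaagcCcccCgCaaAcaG
H3P6: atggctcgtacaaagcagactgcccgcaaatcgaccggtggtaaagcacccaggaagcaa

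H3-3B was the more abundant of the 2 genes. It had 213 and 215 TPM in the PDS libraries, against 284 and 298 TPM in the mock libraries, from 8075 to 20882 reads per library. Scaled to the median gene these became 264 and 271 TPM after PDS and 231 and 234 TPM in mock. The scaled groups did not overlap, and H3-3B was 1.15-fold higher (log2 fold change 0.20, SE 0.0502, limma adjusted p = 0.0391). Its sign was not stable under scaling: the log2 fold change was -0.44 by TPM as deposited, -0.02 when rescaled without the mitochondrial genome and 0.02 under quantile normalization, and the call was lost without each library in turn (limma adjusted p = 0.0862 to 0.169).

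H3-3A had the largest change among the members. It had 60.2 and 53.6 TPM in the PDS libraries, against 65.5 and 71.4 TPM in the mock libraries. After scaling the values were 74.7 and 67.6 TPM in PDS and 53.1 and 56.2 TPM in mock, so the groups stood apart by more than the spread within either. The log2 fold change was 0.37 (SE 0.0713, limma adjusted p = 0.0213), or 1.30-fold relative to the median gene, and -0.26 by TPM as deposited, where H3-3A was lower (limma adjusted p = 0.0313). It was 0.15 without the mitochondrial genome (limma adjusted p = 0.189) and 0.27 under quantile normalization (limma adjusted p = 0.0516), neither of which passed. Leaving out PDS library 1 gave 0.31 (limma adjusted p = 0.0719) and leaving out either mock library 0.33 or 0.41 (0.124 and 0.120), while the call held without PDS library 2 (0.0365).

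H3-3A reads can be confused with copies elsewhere in the genome. Of 971 windows of 100 bases along its 1070-base canonical transcript, 624 (64.3%) also occur in transcripts of other genes, against 0% to 1.9% for the other 7 members. Bases 2 to 1053 of the transcript aligned to chr2:174719791-174720840 with 99.6% identity, the locus of H3P6 and of an overlapping long noncoding RNA, ENSG00000290018. H3P6 was listed with 29.1 and 35.3 TPM in PDS libraries and 46.5 and 46.5 TPM in mock libraries, and the noncoding RNA with 21.2 and 25.8 TPM in PDS libraries and 31.7 and 33.4 TPM in mock libraries. Together the locus held 138 and 209 reads after PDS and 414 and 324 in mock, or 9.67% to 13.8% as many as H3-3A itself. Adding these reads to H3-3A, an alternative chosen after seeing the data, left a log2 fold change of 0.35 (limma adjusted p = 0.0181). How reads with several matches were counted was not given in the sources used here, so the absolute level of H3-3A and H3P6 is uncertain. Any reads left out for several matches, or counted at other copies such as H3P16, are not among the added reads. The alternative therefore does not settle the fold change of H3-3A. Of 55 genes named as pseudogenes of H3 or H2A.Z, 5 had a mean of at least 1 TPM, and after H3P6 the highest were H3P16 (3.93 and 4.10 TPM in PDS libraries, 5.69 and 6.65 TPM in mock libraries) and H2AZP3 (2.50 and 2.01 TPM in PDS libraries, 1.51 and 2.26 TPM in mock libraries).

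H2A.Z is encoded by H2AZ1 (ENSG00000164032.12, chr4:99948086-99950355, minus strand) and H2AZ2 (ENSG00000105968.19, chr7:44826791-44848087, minus strand), whose proteins differ at a few residues. The coding sequences were 387 bases each and 80.4% identical. The first 60 coding bases show how densely the 2 mRNAs differ, with capitals where H2AZ2 departs from H2AZ1.
H2AZ1: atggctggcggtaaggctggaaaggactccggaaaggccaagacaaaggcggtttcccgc
H2AZ2: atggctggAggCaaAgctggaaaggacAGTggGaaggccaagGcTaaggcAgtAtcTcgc

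H2AZ1 was the only member called lower after scaling to the median gene. It had 176 and 169 TPM in the PDS libraries, against 305 and 320 TPM in the mock libraries. Scaled, these were 219 and 213 TPM after PDS and 247 and 252 TPM in mock, again without overlap. The log2 fold change was -0.21 (SE 0.050, limma adjusted p = 0.0364), or 0.87-fold. It stayed negative in all 14 alternatives, between -0.85 and -0.19, but passed in only 7 of them: without single libraries the limma adjusted p was 0.0882 to 0.171. Only 7.3% of its windows of 50 bases, and 0% of those of 100 bases, occur in another gene.

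H2AZ2 had 36.8 and 37.6 TPM in the PDS libraries and 60.7 and 63.9 TPM in the mock libraries. After scaling the difference nearly vanished, with 45.6 and 47.4 TPM in PDS and 49.3 and 50.2 TPM in mock. It did not pass (log2 fold change -0.09, SE 0.0540, limma adjusted p = 0.241), although it was lower by 0.32 without the mitochondrial genome (log2 fold change -0.32, limma adjusted p = 0.0118).

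MACROH2A1 (ENSG00000113648.17, chr5:135334381-135399914, minus strand) and MACROH2A2 (ENSG00000099284.15, chr10:70052544-70112282, plus strand) encode the macroH2A proteins. MACROH2A1 had 25.1 and 24.2 TPM in PDS libraries and 34.3 and 36.4 TPM in mock libraries, which scaled to 31.1 and 30.5 TPM in PDS and 27.9 and 28.6 TPM in mock. MACROH2A2, the least abundant member, had 7.68 and 7.46 TPM in PDS libraries and 13.1 and 14.3 TPM in mock libraries, which scaled to 9.53 and 9.41 TPM in PDS and 10.7 and 11.2 TPM in mock. The paralogs thus lay on opposite sides of mock after scaling, but neither passed (MACROH2A1 log2 fold change 0.12, SE 0.0551, limma adjusted p = 0.157; MACROH2A2 log2 fold change -0.19, SE 0.0675, limma adjusted p = 0.0931). By TPM as deposited MACROH2A1 was lower, with a log2 fold change of -0.50. MACROH2A2 passed as lower with voom on the recovered reads (limma adjusted p = 0.0290). AIFM2, on the opposite strand, shares 986 exon bases with MACROH2A2 (6.58% of its exon bases) and had 49.2 to 54.1 TPM in PDS libraries and 76.7 to 78.1 TPM in mock libraries. The strand setting of the counting was not given, so reads in that stretch cannot be assigned with certainty. The same limit holds for other members. Larger shares of exon bases overlap opposite-strand noncoding RNAs in MACROH2A1 (PITX1-AS1, 27.7%), H1-10 (H1-10-AS1, 22.8%) and H2AZ1 (H2AZ1-DT, 9.82%). These RNAs had at most 0.791, 1.83 and 0.446 TPM in any library. UNK shares 2.92% of the exon bases of H3-3B and had 13.8 to 15.5 TPM in PDS libraries and 21.9 to 23.7 TPM in mock libraries.

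H2AJ (ENSG00000246705.5, chr12:14774405-14778002, plus strand) was higher relative to the median gene and lower by TPM as deposited. It had 18.4 and 16.6 TPM in the PDS libraries, against 22.0 and 21.0 TPM in the mock libraries, which scaled to 22.9 and 21.0 TPM in PDS and 17.9 and 16.5 TPM in mock. The log2 fold change was 0.33 (SE 0.0766, limma adjusted p = 0.0326), and -0.28 by TPM as deposited, where H2AJ was lower (limma adjusted p = 0.0209). It rests on the fewest reads of any member, 380 and 427 in PDS libraries and 879 and 639 in mock libraries, so that counting error alone gives an SE of 0.0632 on the log2 scale, against 0.0131 for H3-3B. The 95% Poisson intervals of its deposited TPM were 16.6 to 20.4 and 15.1 to 18.2 in PDS libraries and 20.6 to 23.5 and 19.4 to 22.6 in mock libraries. They cover counting error only. The call was lost without each library in turn (limma adjusted p = 0.0567 to 0.187).

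H1-10 (ENSG00000184897.6, chr3:129314771-129316286, minus strand) was the most abundant member by TPM. It had 352 and 354 TPM in PDS libraries and 675 and 629 TPM in mock libraries, which scaled to 436 and 447 TPM in PDS and 548 and 495 TPM in mock. The mock libraries were farther apart than for any other member after scaling. It was just short of the threshold (log2 fold change -0.24, SE 0.0688, limma adjusted p = 0.0589) and passed as lower under quantile normalization (log2 fold change -0.47, limma adjusted p = 0.00701).

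**Figure D2:**
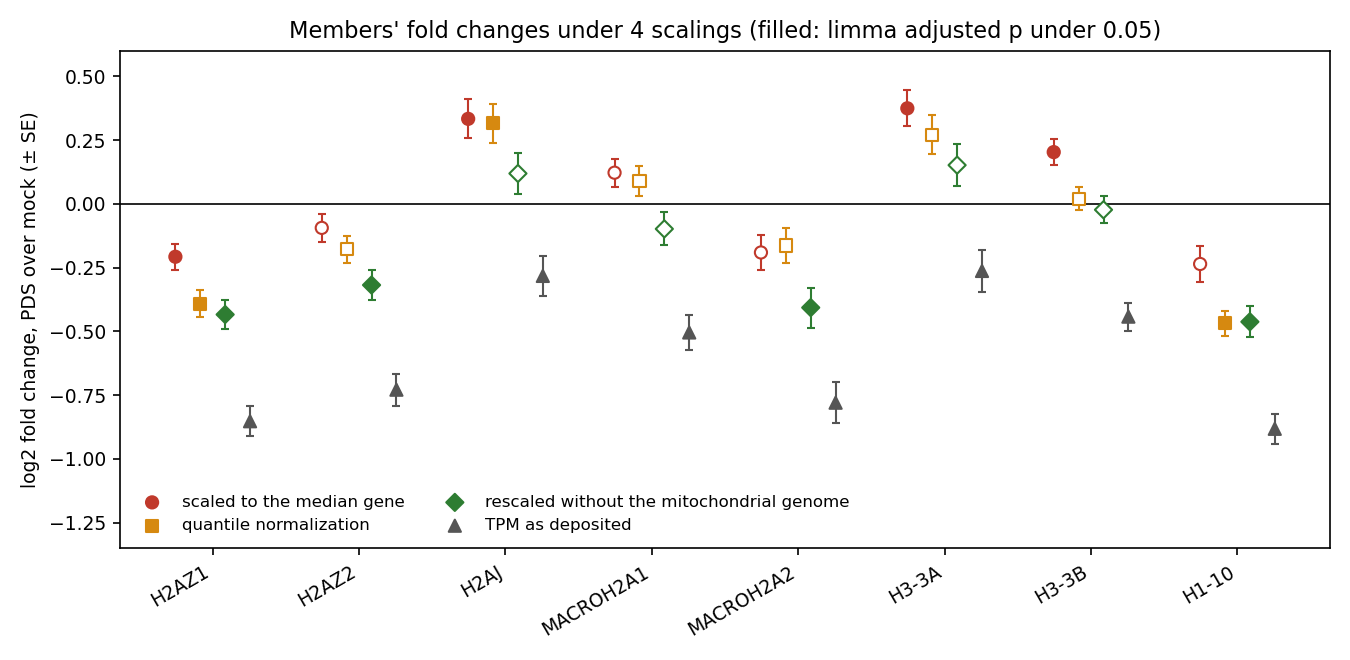
Log2 fold change of PDS over mock for each member under 4 scalings, with bars of 1 SE and filled symbols where the limma adjusted p is under 0.05. The scaling shifts the values of every member: H3-3A runs between 0.37 scaled to the median gene and -0.26 as deposited, and H2AZ1 between -0.21 and -0.85.

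All 8 members had both PDS libraries on 1 side of both mock libraries after scaling, 4 above and 4 below, as did 70.8% of all tested genes. The largest absolute change among them, that of H3-3A, ranked 4120 of 14686 tested genes, so many genes moved further.

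Ratios between related genes within a library do not depend on a scaling by 1 factor per library. Quantile normalization is not of that kind and can change them. H2AZ1 and H2AZ2 had log2 fold changes of -0.21 and -0.09 scaled to the median gene, and -0.39 and -0.18 under quantile normalization. The ratios below are of TPM as deposited. The ratio of H3-3A to H3-3B was 0.283 and 0.249 in PDS libraries and 0.230 and 0.240 in mock libraries, a mean difference of 0.18 on the log2 scale, which was 0.08 without PDS library 1 and 0.27 without PDS library 2. The ratio of H2AZ1 to H2AZ2 was 4.79 and 4.50 in PDS libraries and 5.02 and 5.01 in mock libraries (difference -0.11, or -0.07 without PDS library 2). MACROH2A1 to MACROH2A2 showed the clearest separation from its spread, 3.26 and 3.24 in PDS libraries against 2.61 and 2.54 in mock libraries (difference 0.34, SD of the log2 ratio 0.00692 in PDS and 0.0259 in mock). The ratio of H2AJ to H2AZ1 was 0.105 and 0.0982 in PDS libraries and 0.0723 and 0.0654 in mock libraries (difference 0.56). For these 4 ratios, none of which overlapped between groups, the exact permutation test gave a two-sided p of 0.333, the smallest that 2 against 2 libraries can give (0.417 after Benjamini-Hochberg adjustment over the 5 ratios computed). These tests therefore cannot pass the threshold, and the ratios are given as descriptions.

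**Figure D3:**
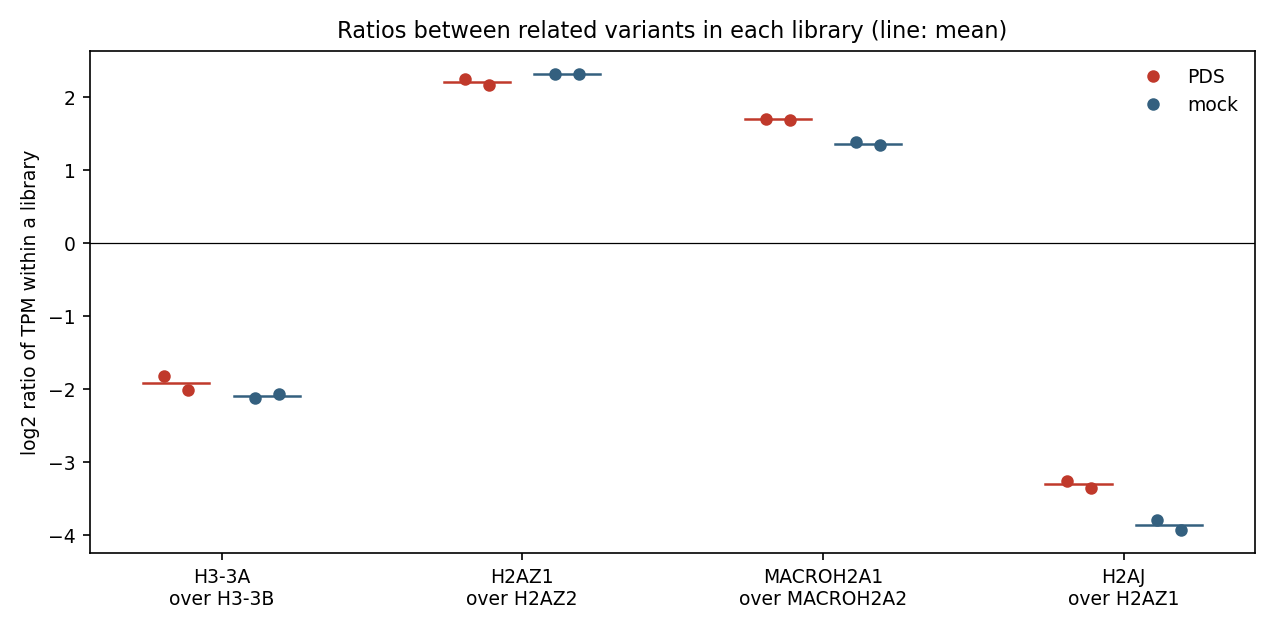
Log2 ratio of TPM between related variants in each library, PDS in red to the left of mock in blue, with lines at the means. MACROH2A1 over MACROH2A2 and H2AJ over H2AZ1 are higher in both PDS libraries (differences 0.34 and 0.56), and H2AZ1 over H2AZ2 is lower in both (difference -0.11).

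Summed over both genes, H3.3 mRNA was 273 and 269 TPM in PDS libraries and 350 and 369 TPM in mock libraries, and H2A.Z mRNA 213 and 207 TPM in PDS libraries and 365 and 384 TPM in mock libraries. H3.3 over H2A.Z was 1.28 and 1.30 in PDS libraries and 0.958 and 0.961 in mock libraries, a sum chosen after the gene values were seen. H3-3A supplied 22.1% and 19.9% of the H3.3 TPM in PDS libraries and 18.7% and 19.4% in mock libraries. H2AZ1 supplied 82.7% and 81.8% of the H2A.Z TPM in PDS libraries and 83.4% and 83.4% in mock libraries, so the makeup of each pool shifted little.

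The order of the members by deposited TPM was H1-10, H3-3B, H2AZ1, H3-3A, H2AZ2, MACROH2A1, H2AJ and MACROH2A2 in both PDS libraries. In both mock libraries H2AZ1 stood above H3-3B, and the rest kept that order. Neighbours did not overlap within a group, but in mock the gaps between H2AZ1 and H3-3B and between H3-3A and H2AZ2 were smaller than the spread of the libraries on either side. The TPM divide reads by the summed exon length of all transcripts, which is 17013 bases for MACROH2A1 and 3332 for H2AJ, against 1917 and 620 in the canonical transcript. Per kilobase of canonical transcript, an alternative chosen after seeing the data, the highest member was H3-3B in both PDS libraries and H2AZ1 in both mock libraries, and MACROH2A1 moved to the fourth place in all 4 libraries. Levels between genes are thus tied to the length used, while fold changes of a gene are not.

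The sum of the 8 members was 888 and 878 TPM in PDS libraries and 1460 and 1454 TPM in mock libraries. The 70 replication-dependent histone genes in the table summed to 182 and 169 TPM in PDS libraries and 187 and 177 TPM in mock libraries, and 28 of them passed the minimum. Relative to the median gene 7 of those 28 were higher and 1 lower (median 0.34 on the log2 scale), against 16.2% and 13.0% of all tested genes. By TPM as deposited 4 were called higher and 6 lower (median -0.14), against 71.8% of all tested genes called lower. The members made up 83.0% and 83.8% of this histone TPM in PDS libraries and 88.7% and 89.1% in mock libraries. Poly(A) selection enriches tailed mRNA, so these shares describe the libraries and not the cell.

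The 3′ ends were compared because the tail sets the gene groups apart. The histone stem-loop (a 6-base stem around a 4-base loop) was absent from every annotated transcript of the 8 members, and present in the canonical transcript of 25 of the 28 replication-dependent genes (89.3%) and of 69 of 19701 protein-coding genes (0.35%). Its most frequent form, in 15 of the 25, is the run that the members lack.
stem-loop: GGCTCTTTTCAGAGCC
A poly(A) signal (AATAAA or ATTAAA) lay in the last 50 bases of 6 of 8 members, all but H2AZ2 and MACROH2A1, and of 3 of the 28 replication-dependent genes. More than 1 exon was annotated in 6 of 8 members and 0 of 28 replication-dependent genes, H1-10 and H2AJ being the members with a single exon.

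Promoters were read from RefSeq (GRCh38.p14), 250 bases before to 50 bases after each annotated start. All 8 members matched, with 12 windows, 4 of them for H3-3A and 2 for MACROH2A1, and windows 2 to 4 of H3-3A overlap their neighbours. CCAAT on either strand (ATTGG on the other) was found in 8 of 12 windows, against 34.7% of 22199 windows of protein-coding genes, and at least 3 copies in 4 windows, those of H3-3B, H2AZ2, H2AJ and H2AZ1, against 3.61%. These 4 are shown because they hold the repeated box, 5′ to 3′ on the strand of the gene, limited to bases that no annotated exon covers. Capitals mark CCAAT or ATTGG. The third copy of H2AZ1 lies outside the stretch shown.
H3-3B (chr17:75779781-75780029, minus strand): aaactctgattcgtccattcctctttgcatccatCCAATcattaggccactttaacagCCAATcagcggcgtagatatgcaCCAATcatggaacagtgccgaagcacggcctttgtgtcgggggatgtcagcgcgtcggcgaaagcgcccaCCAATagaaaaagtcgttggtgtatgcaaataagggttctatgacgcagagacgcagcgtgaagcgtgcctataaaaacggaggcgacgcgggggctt
H2AZ2 (chr7:44848088-44848337, minus strand): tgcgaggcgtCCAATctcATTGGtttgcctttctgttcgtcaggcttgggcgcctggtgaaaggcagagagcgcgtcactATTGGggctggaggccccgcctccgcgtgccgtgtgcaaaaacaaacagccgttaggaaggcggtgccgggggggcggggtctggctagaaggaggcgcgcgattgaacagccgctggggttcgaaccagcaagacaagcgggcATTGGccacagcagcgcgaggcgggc
H2AJ (chr12:14774187-14774404, plus strand): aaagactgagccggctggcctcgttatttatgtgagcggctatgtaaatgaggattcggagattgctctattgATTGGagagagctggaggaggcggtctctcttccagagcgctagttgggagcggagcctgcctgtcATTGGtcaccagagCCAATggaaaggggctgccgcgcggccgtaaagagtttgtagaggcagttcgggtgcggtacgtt
H2AZ1 (chr4:99950356-99950477, minus strand): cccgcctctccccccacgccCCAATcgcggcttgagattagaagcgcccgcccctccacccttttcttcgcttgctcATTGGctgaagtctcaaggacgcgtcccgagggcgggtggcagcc

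Of these 4 genes with the repeated box, H3-3B and H2AJ were higher relative to the median gene (lower by TPM as deposited). H2AZ1 was lower and H2AZ2 was not called. A link between the box and the fold change was not tested. In H3-3B all 4 copies were on the strand of the gene, at positions -216, -192, -169 and -99 from the start. TATAAA was found in 3 windows (H2AZ1, H3-3B and H1-10, first base at -31, -29 and -31), against 9.47% of all windows. GGGCGG was found in 8 windows, against 56.3%. The letters TTTGGCGC and TTTCCCGC were found in 0 windows, against 0.815% and 1.99%. A match describes the sequence and not binding.

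Because PDS binds G4, the windows were also searched on both strands for a G4 motif, 4 runs of at least 3 G with 1 to 7 bases between them. It was found in 5 of 12 windows, against 30.4% of all windows: 3 of the 4 windows of H3-3A, the window of H2AZ1 and 1 of the 2 windows of MACROH2A1. The only match in window 2 of H3-3A is chr1:226062261-226062288, which also lies in window 3. The 5 windows thus count these bases more than once. The 3 matches of the H3-3A window with the most of them, and the match of H2AZ1, are shown as runs of G on the strand of the gene (GGG) or on the other strand (CCC). Capitals mark the whole match.
H3-3A (chr1:226062261-226062288): CCCCTCCCCGCCGCGGCCCGAGACGCCC
H3-3A (chr1:226062320-226062345): CCCGCCTTCCCCTCCCCCCACTTCCC
H3-3A (chr1:226062400-226062423): GGGATGGGAGTGCAGGGCCGGGGG
H2AZ1 (chr4:99950488-99950513): CCCTTCTTCTCCCCCGTTCCCATCCC
Relative to the median gene the genes with the motif were called higher (H3-3A, lower by TPM as deposited), lower (H2AZ1) and not called (MACROH2A1). GGGCGG overlaps the motif in windows 3 and 4 of H3-3A. Formation of G4 was not measured in these libraries.

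**Figure D4:**
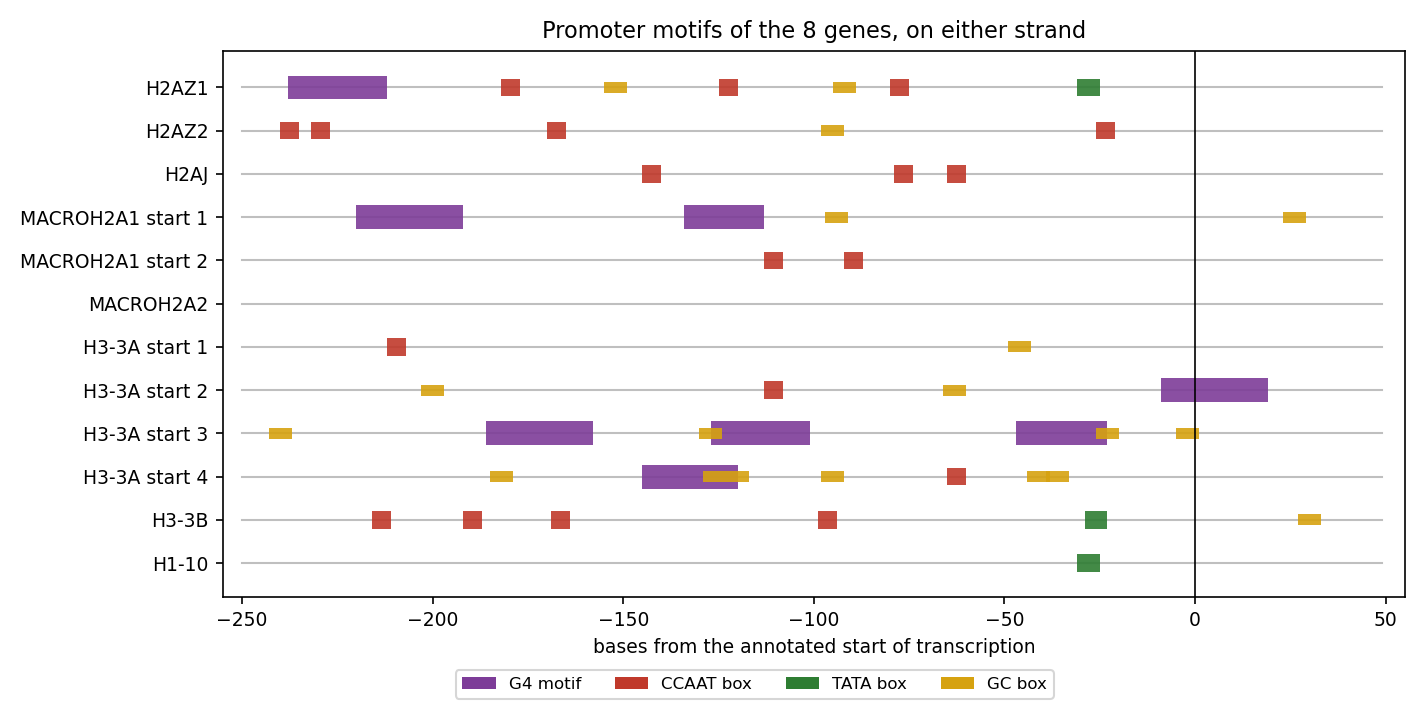
Motif matches on either strand in the 12 promoter windows, by distance in bases from the annotated start, with G4 motifs in purple, CCAAT boxes in red, TATA boxes in green and GC boxes (GGGCGG) in yellow. H3-3B and H2AZ2 hold 4 CCAAT boxes each and no G4 motif, H3-3A starts 2 to 4 hold G4 motifs, and MACROH2A2 holds none of the 4 motifs.

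Among genes that carry these variants into chromatin or make other histones, more were called lower than higher. Over 5 lists of other variants, deposition factors, chaperones and processing factors, 25 of 63 tested genes were called, 3 higher and 22 lower (median -0.21 on the log2 scale, against 0.00 over all genes). For this and each list below, the share over all tested genes was 29.2% called, 16.2% higher and 13.0% lower. Of 21 tested genes of H2A.Z exchange, 2 were higher and 6 lower (median -0.06). EP400, the ATPase of the p400 remodeller, had 3.43 and 3.76 TPM in PDS libraries against 10.02 and 10.09 TPM in mock libraries and was lower by the most in this list (log2 fold change -0.72, SE 0.0859, limma adjusted p = 0.00866). ANP32E, a chaperone that takes H2A.Z out of nucleosomes, and MBTD1, a TIP60 complex subunit, were also lower (log2 fold changes -0.54 and -0.52, limma adjusted p = 0.0142 and 0.0107). The 2 called higher were MEAF6 and ZNHIT1 (0.52 and 0.48), both lower in every PDS library by TPM as deposited, and named after their values were seen. SRCAP fell under the minimum, at 0.402 and 0.589 TPM in PDS libraries and 1.35 and 1.37 TPM in mock libraries, and was named after its values were seen.

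Of 9 genes of H3.3 deposition, 0 were higher and 3 lower (median -0.25). These were HIRIP3, a HIRA-interacting protein, UBN1, a subunit of the HIRA complex, and DEK, an H3.3 chaperone, with log2 fold changes of -0.42, -0.31 and -0.27 (limma adjusted p = 0.0184, 0.0267 and 0.0341). Of the core factors, HIRA and DAXX had log2 fold changes of -0.02 and 0.04 and ATRX one of -0.25, and none passed (limma adjusted p = 0.855, 0.703 and 0.112). They were named because the pathway turns on them, outside the rule. No tested deposition factor was called higher on the scaling under which H3-3A and H3-3B were, and by TPM as deposited these 2 genes were lower too.

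Of 18 general and replication-coupled chaperones, 0 were higher and 7 lower (median -0.23). SUPT16H, a subunit of the FACT complex, had 63.3 and 57.9 TPM in PDS libraries against 144 and 167 TPM in mock libraries (log2 fold change -0.70, SE 0.0789, limma adjusted p = 0.00769). TONSL, which binds newly made histones at replication forks, and CHAF1B, a subunit of the CAF-1 chaperone, had log2 fold changes of -0.65 and -0.59 (limma adjusted p = 0.00958 and 0.0150). Of 11 genes for the synthesis and processing of replication-dependent histone mRNA, 0 were higher and 6 lower (median -0.34), led by CASP8AP2, CSTF2 and LSM11, a subunit of the U7 particle (-0.67, -0.40 and -0.40, limma adjusted p = 0.0208, 0.0137 and 0.0188). By TPM as deposited 60 of the 63 genes were called lower and 0 higher, against 71.8% of all tested genes called lower.

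Of 14 other histone variants, 4 passed the minimum. H2AX and CENPA, the centromeric H3, were not called (log2 fold changes 0.00 and 0.09). H3-5, an H3.3-like gene known from testis, was called higher (4.49 and 3.72 TPM in PDS libraries, 2.77 and 3.63 TPM in mock libraries, log2 fold change 0.79, SE 0.137, limma adjusted p = 0.0177). It rests on 31 and 32 reads in PDS libraries and 37 and 37 in mock libraries. Its coding sequence is 97.3% identical to that of H3-3B, so some of its reads are uncertain. Of its windows of 50 bases 20.7% occur in another gene, and of those of 100 bases 1.6%. Counting error alone gives an SE of 0.247 on the log2 scale. The call was lost by TPM as deposited (log2 fold change 0.28, limma adjusted p = 0.136), with no filter on low values (0.0725), without PDS library 1 (0.0749) and without mock library 1 or 2 (0.101 and 0.0972).

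**Figure D5:**
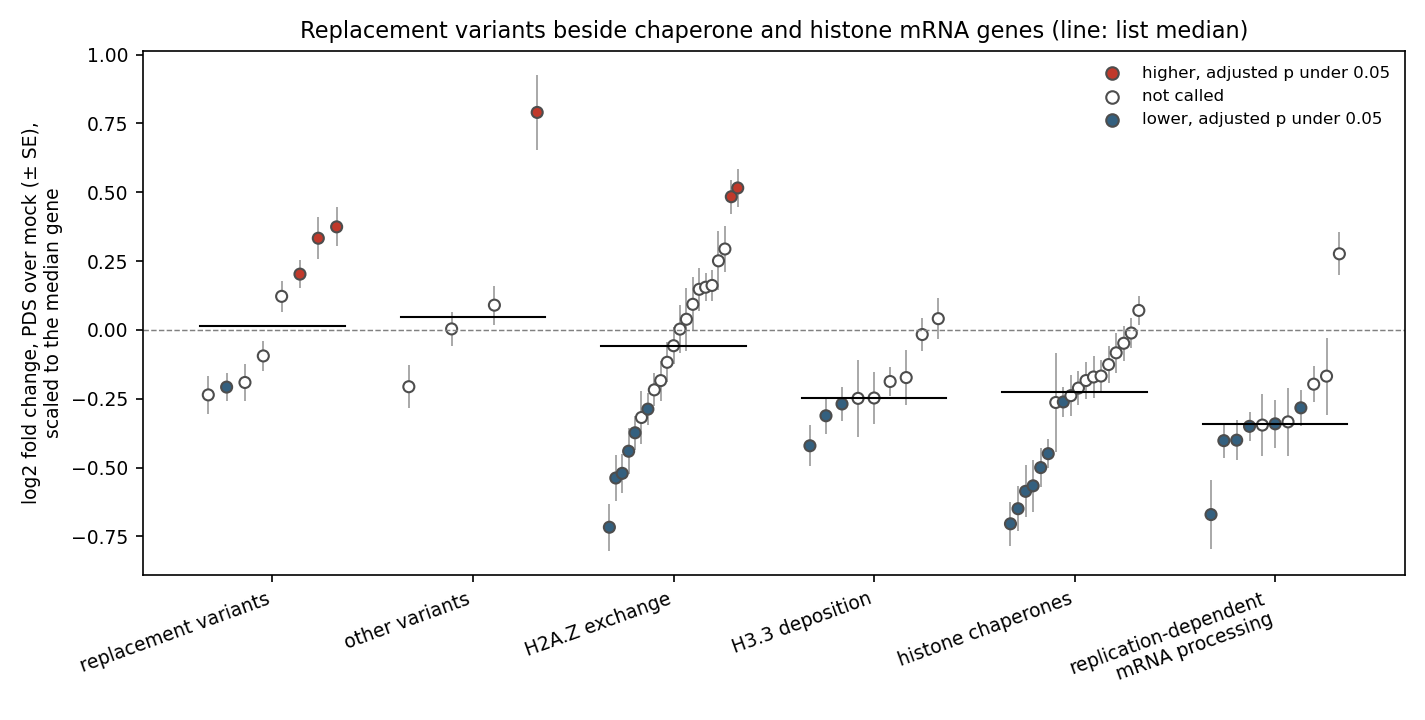
Log2 fold change of PDS over mock, scaled to the median gene, for each tested gene of the members' list and 5 other lists, sorted within a list, with bars of 1 SE, lines at the list medians, red for genes called higher and blue for genes called lower. The members spread around 0 (median 0.01) with 3 called higher, while chaperones and processing genes lie mostly below 0 (medians -0.23 and -0.34); by TPM as deposited the members called higher here were lower.

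The gene whose profile over the 4 libraries was most like a member was sought among 6905 protein-coding genes averaging 10 TPM or more, by the Euclidean distance of gene-centred log2(scaled TPM + 1). It was TSC22D1 for H3-3A (distance 0.0252), SNRPN for H3-3B (0.00911), HS2ST1 for H2AZ1 (0.0105), MCU for H2AZ2 (0.00440), WDTC1 for MACROH2A1 (0.0134), USP33 for MACROH2A2 (0.0115) and DHRS4L2 for H2AJ (0.0203). With 4 libraries such likeness is common, since 111 to 789 genes lay within 0.1 of a member.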

How the data were processed

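HepG2 poly(A) RNA was sequenced in 2 PDS and 2 mock libraries, grouped by their labels. According to the methods and the submitters' processing notes, the authors aligned reads to GRCh38 with STAR (2.7.0), quantified genes by featureCounts (2.0.3) and ran their tests in DESeq2 (1.36.0). The deposited table holds an expression signal in TPM. For the annotation release, the strand setting and multiply aligned reads, the choice is not given in the sources used here. Of 61906 identifiers, 59984 (96.9%) matched GENCODE 44 in version, as did 7 of 8 members (H1-10 matched without version). TPM times summed exon length gave whole reads (within 0.05) for 99.89% to 99.9% of values. Column totals, in 2 rows with no identifier, were dropped.

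Libraries were scaled by median-of-ratios factors (0.806 and 0.792 for PDS, 1.23 and 1.27 for mock). Genes averaging 1 TPM or more were tested on log2(scaled TPM + 1) with limma (3.58.1, R 4.3.3), moderated variances with a mean trend, two-sided, Benjamini-Hochberg adjustment over 14686 genes, threshold 0.05, without a replicate block. The pseudocount understates changes of low genes. The fit was tested on simulated data. These were drawn from the mock shares without the shift in mitochondrial RNA, so that test does not bear on the choice of scaling. Ratios within libraries were compared by an exact permutation test. Python (3.11.15) and Biopython (1.88) were used for sequences. The members and gene lists were chosen with earlier results of these data known. Named genes were all members, up to 3 called genes with the largest change per list (2 where none passed), the nearest gene of each member, and the 3 most abundant pseudogenes, with exceptions marked. Some genes that the rule names, and 1 ratio, are not reported here. Alternatives were other scalings (TPM as deposited, quantile, without the mitochondrial genome), pseudocounts (0.1, 0.5), filters, voom on recovered reads, variances without trend, a replicate block and leaving out each library.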

Additional observations from a re-analysis of the deposited data

How the results depend on the processing

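The count of called genes was 4283 (2377 higher and 1906 lower). It was 10917 by TPM as deposited (379 higher, 10538 lower), 1237 with no filter on low values and 2817 with the replicate block, and 0 to 2503 without single libraries (limma, with 4645 and 4106 genes at an unadjusted p under 0.05 without mock library 1 or 2, where the count was 0). The split also moved under quantile normalization (1829 higher, 2404 lower) and without the mitochondrial genome (1165 higher, 4881 lower). With voom on the recovered reads 5548 of 14159 tested genes were called (2849 higher, 2699 lower), so calls were more frequent over all genes too. In that fit 61 of the 63 list genes were tested. With variances without trend 3024 genes were called. Of the 8 members, 4 were called, against 8 by TPM as deposited, 0 with no filter or with variances without trend (6 at an unadjusted limma p under 0.05 in each, and 6 called with voom), 2 with the replicate block (H3-3A and H2AJ), and 0 to 1 without single libraries (3 to 5 at an unadjusted p under 0.05). Where a group is left with 1 library, that library is assumed to vary like the other group. Of the 63 list genes, 25 were called, against 60 by TPM as deposited, 48 without the mitochondrial genome, 9 with no filter, 39 with voom, 18 with the replicate block and 0 to 15 without single libraries. Signs turned for H3-3A (-0.26), H3-3B (-0.44), H2AJ (-0.28) and MACROH2A1 (-0.50) by TPM as deposited, and for H3-3B (-0.0235) and MACROH2A1 (-0.10) without the mitochondrial genome, as log2 fold changes. Other pseudocounts and a minimum of 5 TPM ended no member's call. The log2 ratio of MACROH2A1 to MACROH2A2 differed by 0.28 with a pseudocount of 1, against 0.34 without, and that of H3-3A to H3-3B by 0.08 to 0.27 without single libraries. The cause of these differences was not tested. Same-numbered libraries did not deviate together (correlation -0.03 over 14686 genes). With 2 libraries a group this cannot show whether they shared a day or culture. Depth limits the genes with few reads, such as H3-5 (31 to 37 reads per library) and, among the members, H2AJ (380 to 879).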
